A study of Mus musculus with 7 samples.

Results

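The genes described here are 6 of the 21938 protein-coding genes of the GENCODE M21 annotation that lie on chromosomes 1 to 19, X and Y. They encode a vesicle release factor of granule cells, *Cadps2*, its relative *Cadps*, the neurotrophins *Bdnf* and *Ntf3*, and the neurotrophin receptors *Ntrk2* and *Ntrk3*. Their peaks were those with a centre inside the gene or up to 50 kb away in mm10 (GRCm38), which took 35 of the 33442 peaks of 3 ChIP-seq libraries of granule neuron progenitors (GNPs). Of these, 32 of 31400 were H3K27ac peaks of WT GNPs, 3 of 1946 were Chd7 peaks of WT GNPs, and 0 of 96 were Chd7 peaks of *Chd7*-deficient GNPs.

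The GNPs were isolated fresh from C57BL/6 pups (C57BL/6N in the study's methods) at postnatal day 7. The study gives its WT animals as *Chd7 f/f*, whereas the labels give the strain alone. Chd7 was mapped in WT GNPs and in *Atoh1-Cre::Chd7 f/f* GNPs, where Cre deletes *Chd7* in cells descended from *Atoh1*-expressing progenitors, and H3K27ac was mapped in WT GNPs. The study reported residual Chd7 protein in the posterior lobe of these mutants, so the deficient GNPs need not lack it in every cell. Top2b was mapped in granule neurons (CGNs) of the same age, WT or *Chd7*-deficient, after 48 h of culture without the mitogen SHH. Each condition had 1 sample, so no difference between libraries could be set against the variation between animals. Intervals given below cover counting error only, and the depth of each library is not given here, since the tables hold no read totals and the methods state a minimum of mapped reads alone.

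ChIP-seq finds the places where DNA fragments pulled down with a protein or histone mark pile up over the background. Chd7 is an ATP-dependent chromatin remodeller, H3K27ac is an acetylation of histone H3 found at active promoters and enhancers, and Top2b is the type II topoisomerase of postmitotic neurons, which passes DNA strands through transient breaks. Cadps proteins prime dense-core vesicles for fusion with the plasma membrane. Granule cells release Bdnf and neurotrophin-3 (encoded by *Ntf3*) from such vesicles, and Cadps2 promotes this release. Bdnf acts on the receptor TrkB (*Ntrk2*) and neurotrophin-3 mainly on TrkC (*Ntrk3*), both of which are tyrosine kinases that signal in developing cerebellar neurons.

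As a check of the labelled cell type, all 10 listed granule neuron progenitor markers, among them *Atoh1*, *Pax6* and *Neurod1*, had an H3K27ac peak within 500 bp of a start site. So did 3 of 6 Purkinje cell markers (*Foxp2*, *Lhx1* and *Lhx5*, but not *Pcp2*, *Calb1* or *Car8*), 1 of 3 interneuron progenitor markers, 2 of 4 astroglial, 2 of 5 oligodendrocyte, 1 of 3 microglial and 0 of 3 endothelial markers. Over all protein-coding genes this share was 46%. The part of other cell types in the values below was not tested.

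In WT GNPs, *Cadps2*, *Ntrk2* and *Ntrk3* each had 1 Chd7 peak, and *Cadps*, *Bdnf* and *Ntf3* had none. Over all protein-coding genes, 14.3% had a WT Chd7 peak within the same distance. The windows of the genes with a peak were long, from 427 kb (*Ntrk2*) to 677 kb (*Cadps2*), and a longer window can hold more peaks. Per 100 kb of window, the 6 genes together had 0.114 WT Chd7 peaks, beside 0.0698 over the assembled chromosomes. The 3 peaks sat in different surroundings, shown here by the 201 bases of reference sequence centred on each summit, on the plus strand of GRCm38. Capitals mark, on either strand, the E-box letters CAGCTG and those of a further E-box, CAGATG, the NFI letters TTGGCA, the Zic letters CAGCAGG and the core of a CRE, TGACGT. No motif of the 5 contains another.
Cadps2, upstream, chr6:23873890-23874090: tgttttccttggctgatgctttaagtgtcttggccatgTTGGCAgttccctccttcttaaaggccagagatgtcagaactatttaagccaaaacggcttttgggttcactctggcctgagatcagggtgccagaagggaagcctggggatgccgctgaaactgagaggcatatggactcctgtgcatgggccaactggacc
Ntrk2, intron, chr13:58826990-58827190: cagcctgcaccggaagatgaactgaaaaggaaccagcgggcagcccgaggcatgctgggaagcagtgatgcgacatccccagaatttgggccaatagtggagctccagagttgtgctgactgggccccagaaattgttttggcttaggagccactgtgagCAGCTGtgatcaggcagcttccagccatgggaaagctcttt
Ntrk3, intron, chr7:78518885-78519085: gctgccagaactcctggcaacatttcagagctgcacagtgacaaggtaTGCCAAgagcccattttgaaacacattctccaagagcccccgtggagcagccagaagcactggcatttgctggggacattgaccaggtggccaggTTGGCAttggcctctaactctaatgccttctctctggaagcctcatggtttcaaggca

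Within 150 bp of the summit, the *Cadps2* site held TTGGCA 62 bp to the left of the summit, and the *Ntrk3* site held the same motif 52 bp to the left (as its reverse complement) and 43 bp to the right. The *Ntrk2* site held no TTGGCA, but CAGCTG 60 bp to the right of its summit. The *Ntrk3* site also held CAGATG 147 bp to the left, outside the printed bases. Among 1902 WT Chd7 summits on the assembled chromosomes, TTGGCA stood in 25.7%, CAGCTG in 26.2%, CAGATG in 31.3%, CAGCAGG in 14.6% and TGACGT in 6.26%. The same shares were 14.5%, 18.1%, 22.4%, 12% and 3.79% around H3K27ac summits. A match is a description of the letters and not a binding site.

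At *Cadps2*, the Chd7 peak (chr6:23873805-23874319) had a summit pileup of 27 fragments (exact 95% Poisson interval 17.8 to 39.3) over a local background of 3.57. By fold enrichment it ranked 77 among the WT Chd7 peaks, and 4.01% of them were as high. It lay across a gap in the acetylation. The H3K27ac peak on its left (chr6:23872474-23873861) had a fold enrichment of 5.77 and the one on its right (chr6:23874024-23875551) a fold enrichment of 10.3. The Chd7 summit fell in the 162 bp between them, 129 bp past the end of the left peak and 34 bp before the start of the right one. Of all WT Chd7 peaks, 5.6% overlapped 2 or more H3K27ac peaks, and of the 1515 that overlapped any, 12.7% had a summit outside every H3K27ac peak. In all, 6 H3K27ac peaks stood within 5 kb of this summit, 3 on each side.

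At *Ntrk2*, which encodes TrkB, the Chd7 peak (chr13:58826881-58827286) was weaker, with a pileup of 20 fragments (12.2 to 30.9), enriched 3.89-fold at a −log10 q-value of 3.92. It ranked 1153, and 59.8% of WT Chd7 peaks were as high. It lay in an intron, 20.5 kb from the upstream end of the gene and 96 bp from the annotated start of *Gm47423*, a predicted gene within *Ntrk2*. All of it was covered by the H3K27ac peak with the highest fold enrichment of the gene, 14.0 (chr13:58824767-58828166), whose summit was 445 bp away.

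At *Ntrk3*, which encodes TrkC, the Chd7 peak (chr7:78518705-78519147) had the highest pileup of the 3, at 29 fragments (19.4 to 41.6), over a higher background of 4.82. Its fold enrichment was 5.15 and its −log10 q-value 9.07, and 12.9% of WT Chd7 peaks were as high. The 3 Poisson intervals overlapped, so the order of the pileups is not beyond counting error. The *Ntrk3* peak lay in an intron, 219 kb from the upstream end of the gene and 52906 bp from the nearest annotated start site, and no H3K27ac peak overlapped it.

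The nearest H3K27ac peak to the *Ntrk3* Chd7 peak was 263 kb away, and 3.68% of the WT Chd7 peaks were as far from acetylation. On the other side the next acetylated peak was 1729568 bp away. The whole *Ntrk3* gene lay in this gap of 1.99 Mb without H3K27ac, the 84th longest of 31374 gaps between neighbouring H3K27ac peaks, whose median was 17.9 kb. Thus 2 of the 3 Chd7 peaks overlapped H3K27ac, beside 77.9% over all WT Chd7 peaks.

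**Figure D1:**
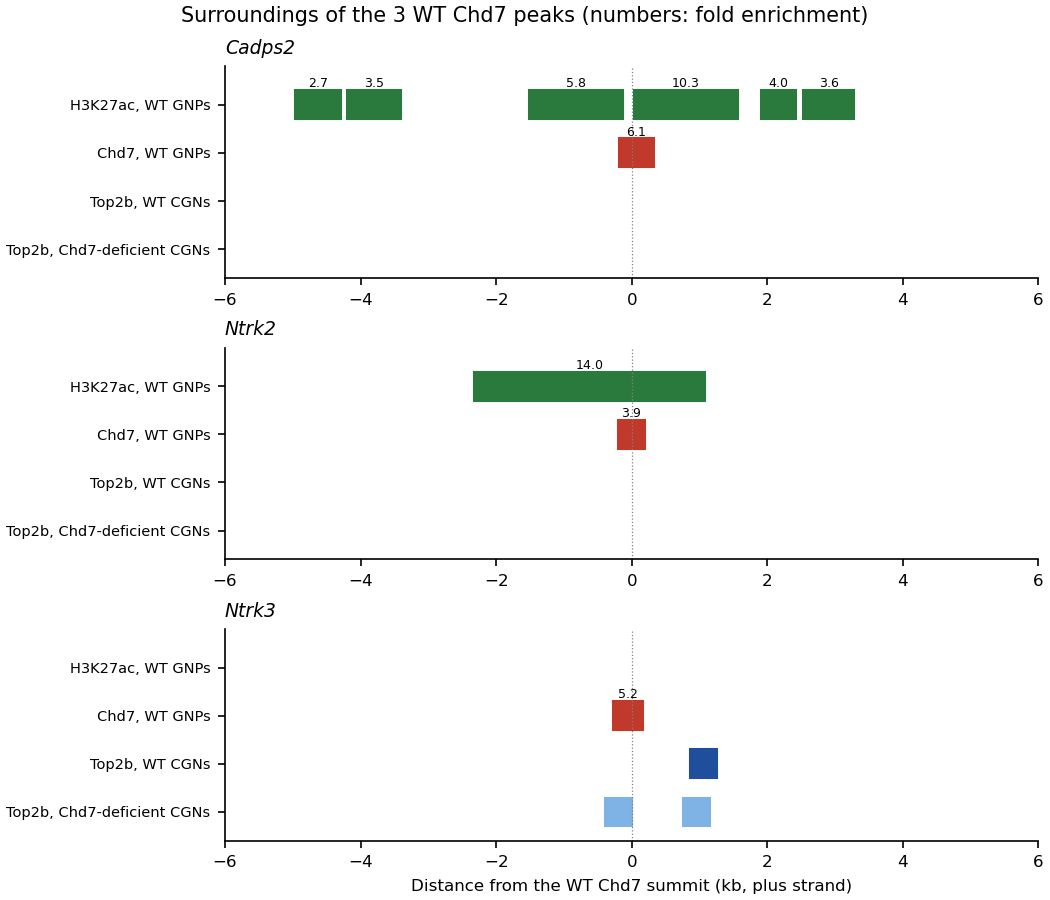
Positions of peaks within 6 kb of the 3 WT Chd7 summits, with the distance from the summit in kb on the x axis, 1 library per row, and fold enrichment printed over H3K27ac and Chd7 peaks. The *Cadps2* summit falls between H3K27ac peaks of 5.8 and 10.3, and the *Ntrk2* summit inside one of 14.0. The *Ntrk3* summit falls inside a Top2b peak of *Chd7*-deficient CGNs, with further Top2b peaks beside it and no H3K27ac.

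In *Chd7*-deficient GNPs, no Chd7 peak was called at any of the 6 genes, where 0.205% of all protein-coding genes had one. The lowest called pileup was 14 fragments in this library and 12 in the WT library, and weaker sites were not called in either. Since a call also depends on the local background, a site with a higher pileup may have gone uncalled too. Of all WT Chd7 peaks, 3.19% overlapped a peak of the deficient GNPs. The WT counts depend on the window at *Cadps2*. Inside the gene itself *Cadps2* had 0 WT Chd7 peaks, and 2 of the 3 remained, those of *Ntrk2* and *Ntrk3*, beside 4.34% of all protein-coding genes with a peak in the gene. A wider window added none up to 100 kb, since the next WT Chd7 peaks were 404 kb from *Ntrk2*, 461 kb from *Cadps*, 607 kb from *Ntf3* and 825 kb from *Cadps2*.

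H3K27ac was spread unevenly over the 6 genes in WT GNPs. *Ntrk2* had 14 peaks and *Cadps2* 12, *Cadps* had 4, *Bdnf* and *Ntrk3* had 1 each, and *Ntf3* had 0. Over all protein-coding genes, 73.5% had at least 1 peak in the window, and 2.04% had as many as *Ntrk2* and 3.52% as many as *Cadps2*. These are long genes, of 327 kb for *Ntrk2* and 577 kb for *Cadps2*. Per 100 kb of window, *Ntrk2* had 3.28 peaks and *Cadps2* 1.77, densities reached by 26.3% and 46.0% of genes. The 32 peaks together came to 1.21 per 100 kb, beside 1.15 over the assembled chromosomes.

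**Figure D2:**
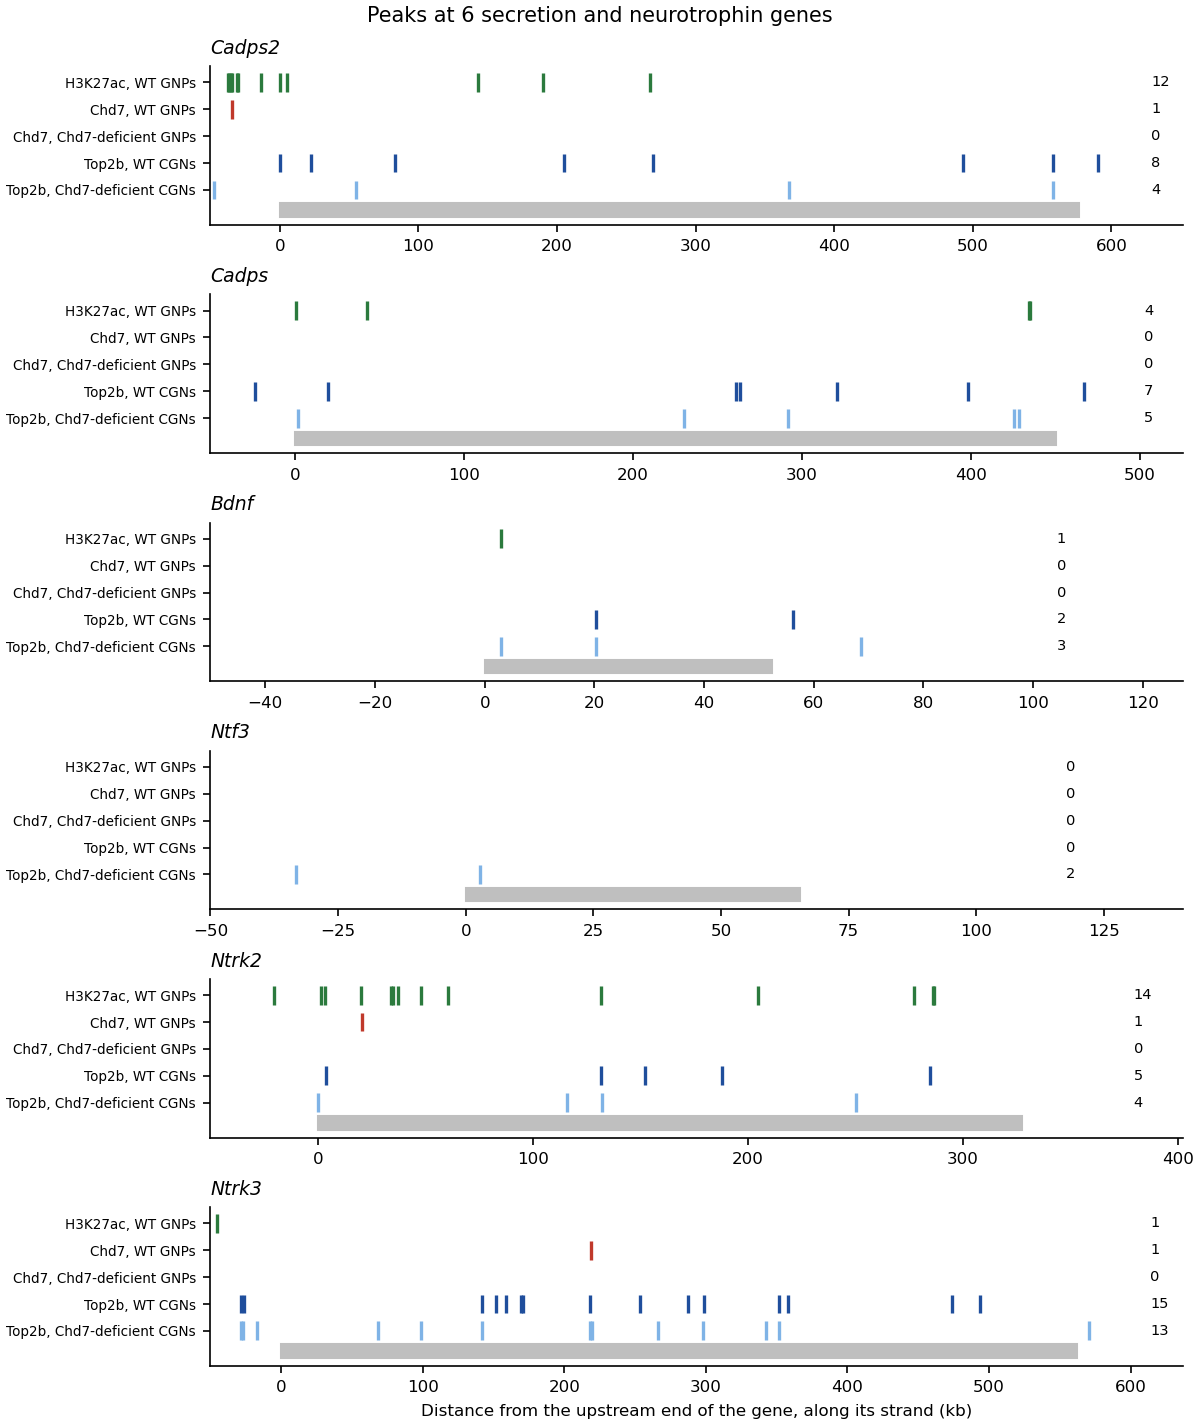
Peaks of 5 libraries at the 6 genes, with the distance from the upstream end of the gene along its strand in kb on the x axis, the gene as a grey bar, and 1 tick for each peak, counted at the right. *Cadps2* and *Ntrk2* carry 12 and 14 H3K27ac peaks near their upstream ends and beyond, whereas *Ntrk3* carries Top2b peaks along its length (15 and 13) and its single H3K27ac peak lies outside the gene.

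Of the 32 H3K27ac peaks, 22 were below the median fold enrichment of all H3K27ac peaks (4.35), and their own median was 3.64. A few strong peaks stood out of this field, with fold enrichments from 2.51 to 19.0. In 22 of the 32 the nearest annotated start site belonged to the gene itself. At the edge of the window, the farthest peak inside was 45.2 kb from *Ntrk3*, and the nearest outside were 62.9 kb from *Cadps2* and 88.2 kb from *Cadps*.

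**Figure D3:**
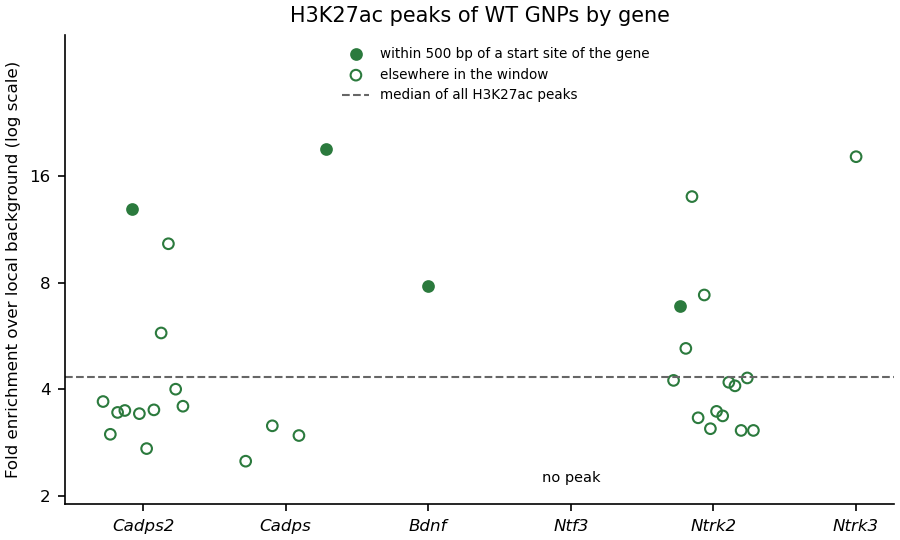
Fold enrichment of each H3K27ac peak over its local background (y axis, log scale) by gene, in chromosome order within a gene, with filled points within 500 bp of a start site of that gene and the dashed line at the median of all H3K27ac peaks, 4.35. The *Cadps* and *Cadps2* start-site peaks stand at 19.0 and 12.9, most other points lie below the line, and *Ntf3* has no peak.

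The vesicle priming genes *Cadps2* and *Cadps* both had a broad acetylated promoter. The *Cadps2* peak (chr6:23834962-23840057) was 5096 bp wide with a pileup of 153 (a scaled value, not whole fragments), enriched 12.9-fold at a −log10 q-value of 112. It covered the cluster of start sites from which 10 of its annotated transcripts begin. The *Cadps* peak (chr14:12821040-12823942) was narrower, at 2903 bp, with a pileup of 158 and a fold enrichment of 19.0, which 3.59% of H3K27ac peaks reached.

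The paralogs differed away from the promoter. *Cadps2* had 7 H3K27ac peaks upstream of the gene, of which 6 formed a group of 8.25 kb that held the Chd7 peak, and 4 more peaks in introns. Among these 11, the lowest had a fold enrichment of 2.73. *Cadps* had 3 further peaks, all intronic, with fold enrichments of 2.51, 2.97 and 3.16, and none upstream. The promoters also differed in base composition, as the 250 bases before the RefSeq start site show, printed on the strand of the gene (GRCm38.p6).
Cadps2, chr6:23839422-23839671, minus strand: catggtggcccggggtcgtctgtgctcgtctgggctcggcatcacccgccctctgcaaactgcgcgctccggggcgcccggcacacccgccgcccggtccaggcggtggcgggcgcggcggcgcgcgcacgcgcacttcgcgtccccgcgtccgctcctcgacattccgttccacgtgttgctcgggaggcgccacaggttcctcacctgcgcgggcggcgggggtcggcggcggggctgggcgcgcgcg
Cadps, chr14:12823080-12823329, minus strand: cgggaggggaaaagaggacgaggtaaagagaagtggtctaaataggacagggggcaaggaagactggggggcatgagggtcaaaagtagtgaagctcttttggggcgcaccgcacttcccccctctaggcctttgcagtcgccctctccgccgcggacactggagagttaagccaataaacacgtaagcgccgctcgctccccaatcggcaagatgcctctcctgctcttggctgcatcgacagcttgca

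In these bases the *Cadps2* promoter was 78% G or C with 44 CpG dinucleotides, and the *Cadps* promoter 58% with 14. The medians over 32851 RefSeq promoters were 52.4% and 6. No letters are in capitals because none of the 5 motifs occurred in either stretch. Among the 6 genes, *Cadps2* was the one overlapped by a stitched H3K27ac region above the super-enhancer cut (4.18% of protein-coding genes were), and that region was the promoter peak with 1 small neighbour. Ranked by width times fold enrichment in place of width times pileup, 0 of the 6 genes were overlapped by one. The *Cadps* promoter stood at rank 801 of 17539 regions, where 612 regions passed. The intronic group of *Ntrk2* with its Chd7 peak, 42.6 kb long, stood at rank 883. The upstream group of *Cadps2* with its Chd7 peak stood at rank 2430 and did not pass either.

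The ligand genes carried little acetylation. *Bdnf*, whose transcripts start from several alternative promoters, had 8 clusters of annotated start sites, and 1 of them had an H3K27ac peak within 500 bp. This peak (chr2:109677379-109678281) was enriched 7.81-fold at a −log10 q-value of 38.3. It began 347 bp past the start of transcript Bdnf-206. The start of Bdnf-209, 17.7 kb into the gene, had none. The 250 bases before both starts are printed on the plus strand, with TGACGT, the core of the cAMP response element, in capitals where it occurs on either strand.
Bdnf-206, chr2:109676782-109677031: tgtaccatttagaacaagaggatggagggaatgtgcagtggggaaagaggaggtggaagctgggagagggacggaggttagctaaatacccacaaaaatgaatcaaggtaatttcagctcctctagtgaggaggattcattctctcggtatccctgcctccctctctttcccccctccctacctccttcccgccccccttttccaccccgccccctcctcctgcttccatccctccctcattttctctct
Bdnf-209, chr2:109692186-109692435: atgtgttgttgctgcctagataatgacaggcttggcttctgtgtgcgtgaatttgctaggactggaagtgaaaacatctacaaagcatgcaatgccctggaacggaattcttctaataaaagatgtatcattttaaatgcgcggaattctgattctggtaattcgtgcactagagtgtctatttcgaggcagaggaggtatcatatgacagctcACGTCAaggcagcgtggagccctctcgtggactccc

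The CRE core stood 36 bp before the start of Bdnf-209, as its reverse complement, and in 7.51% of all RefSeq promoters of the same 300 bp length. None of the other 6 *Bdnf* promoters in the RefSeq table held it. Of the remaining motifs, CAGCTG stood 171 bp before the cluster that starts Bdnf-203 and Bdnf-204, and in 16.3% of all promoters. CAGATG stood 221 bp before a further RefSeq start of *Bdnf*, 138 bp before the *Ntrk2* start, 48 bp before an *Ntf3* start and 41 bp past the *Cadps* start, and in 17.2% of all promoters. No promoter found for these genes held TTGGCA (14.1% of all) or CAGCAGG (10.5%). The *Bdnf* peak stood alone, since downstream of it the next H3K27ac peak was 212 kb away. *Ntf3*, which encodes neurotrophin-3, had 0 of 2 start-site clusters acetylated and lay within a gap of 624 kb between H3K27ac peaks, and 2.26% of gaps were as long. Over all protein-coding genes, 26.5% likewise had no H3K27ac peak in the window.

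The receptor genes differed in this mark. At *Ntrk2*, the start-site peak (chr13:58806573-58809098, fold enrichment 6.88) reached both clusters of start sites used by protein-coding transcripts. It was lower than the intronic peak at the Chd7 site (14.0), and 13 of the 14 peaks lay inside the gene. For 6 of the 14, however, the nearest annotated start site belonged to another gene. These include the intronic peak of 14.0, whose summit was 349 bp from the start of *Gm47423*. At *Ntrk3*, 0 of 11 start-site clusters had an H3K27ac peak. The single peak assigned to it (fold enrichment 18.1) lay 45.2 kb upstream of the gene, 90 bp from the start of *Mrps11*, a mitochondrial ribosomal protein gene, and counts for *Ntrk3* by the window alone. Over the 6 genes, 5 of 36 start-site clusters were acetylated, all 5 among the 18 with a protein-coding transcript. The share over all clusters of protein-coding genes, with or without such a transcript, was 24.2%. Of the 36 clusters, 11 belonged to *Ntrk3*. By gene, *Cadps2*, *Cadps*, *Bdnf* and *Ntrk2* had an acetylated start site and *Ntf3* and *Ntrk3* had none, beside 46% of all protein-coding genes with one.

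Top2b peaks of cultured CGNs, which the rule for the peaks did not use, followed a different order when counted per gene window. *Ntrk3*, with no H3K27ac peak inside the gene, had 15 WT Top2b peaks, a number reached by 0.0820% of protein-coding genes, and 13 in *Chd7*-deficient CGNs. *Cadps2* had 8 WT and 4 deficient peaks, *Cadps* 7 and 5, *Ntrk2* 5 and 4, *Bdnf* 2 and 3, and *Ntf3* 0 and 2. At least 1 peak was present at 5 of the 6 genes in WT and at 6 of 6 in deficient CGNs, beside 62.2% and 71% of all protein-coding genes. Per 100 kb, *Ntrk3* had 2.27 WT peaks, a density reached by 9.65% of genes. The other genes with WT peaks lay close together, at 1.31 (*Bdnf*), 1.27 (*Cadps*), 1.18 (*Cadps2*) and 1.17 (*Ntrk2*) per 100 kb. These densities were reached by 27.6% to 29.3% of genes. The 6 genes together had 1.40 WT peaks and 1.18 deficient peaks per 100 kb, where the assembled chromosomes had 0.624 and 0.789. Those chromosomes include stretches outside gene windows. Beside other gene windows, the deficient densities of the 6 genes were reached by 23.2% (*Bdnf*) to 67.0% (*Cadps2*) of genes. The Top2b lists give positions of fixed width without heights, so a peak just over the threshold weighs as much as a tall one, and genotype and library cannot be told apart.

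**Figure D4:**
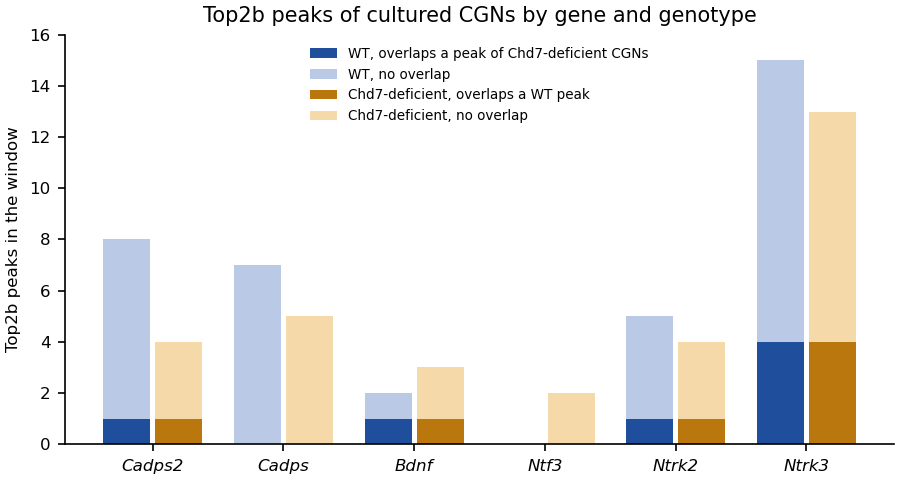
Number of Top2b peaks in the window of each gene (y axis), with WT CGNs in blue and *Chd7*-deficient CGNs in orange, and the dark part of each bar showing peaks that overlap a peak of the other genotype. *Ntrk3* has the most peaks (15 and 13), and wherever a gene has peaks most of them have no overlapping peak in the other genotype, except at *Bdnf* in WT, with 1 of 2 shared.

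Few listed Top2b positions overlapped between the genotypes. Whether the lists hold every peak or were filtered is not stated, and without heights a position missing from a list cannot be read as a site lost or gained. Of the 37 WT peaks at the 6 genes, 7 overlapped a peak of deficient CGNs (18.9%, Wilson 95% interval 9.48 to 34.2), and of the 31 deficient peaks 7 overlapped a WT peak (22.6%, 11.4 to 39.8). Over all Top2b peaks the shares were 16.8% and 13.3%, which both lie inside these intervals. *Ntrk3* held 4 of the 7 shared peaks, and *Cadps2*, *Bdnf* and *Ntrk2* 1 each. At *Cadps*, 0 of 7 WT peaks (up to 35.4%) and 0 of 5 deficient peaks (up to 43.4%) were shared.

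The Top2b positions listed at start sites differed between the WT and deficient lists in both directions. With single libraries and no heights, these cannot be read as sites lost or gained. In WT CGNs a Top2b peak (chr6:23838792-23839187) lay at the start of *Cadps2*, 0.432 kb into the gene, in coding sequence and under the broad H3K27ac peak. The nearest Top2b peak of deficient CGNs was 47371 bp away. The reverse held at *Ntrk2*, where deficient CGNs had a peak at the start (chr13:58806483-58806882) and the nearest WT peak was 3204 bp away. At *Bdnf*, a peak of deficient CGNs (chr2:109677446-109677845) lay in the acetylated region and the nearest WT peak was 16952 bp away. A further one, 20.3 kb into *Bdnf* and within 500 bp of the start cluster of Bdnf-203 and Bdnf-204, was shared by both genotypes. At *Ntrk3*, a WT peak (chr7:78578703-78579098) lay at the start cluster used by 7 of its transcripts, and the nearest peak of deficient CGNs was 16914 bp away.

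With a distance of 500 bp, 3 of the 6 genes had start-site Top2b in WT and 2 of 6 in deficient CGNs, beside 11.2% and 22.3% of all protein-coding genes. The 6 genes had 36 start-site clusters, 11 at *Ntrk3* and 8 at *Bdnf*, where all 21938 protein-coding genes had 52546. A gene with more clusters has more places for such a peak, and the shares by gene were not corrected for this. A start-site peak in 1 genotype alone was common. Of the genes with one in WT, 43.2% had none in deficient CGNs, and of those with one in deficient CGNs, 71.3% had none in WT. The *Cadps2* start-site peak was entry 21 of 17030 in the deposited order of the WT list. The *Ntrk2* start-site peak was entry 145 of 21505 in the deficient list. What these orders follow is not stated, and whether they track peak height was not tested. In the WT list, the share of peaks found in the other genotype fell from 54.3% in the first 10% to 3.82% in the last 10%. In the deficient list it fell from 29.7% to 4.14%. Among the first 100 entries, 36 of the WT list and 61 of the deficient list had no overlapping peak in the other genotype.

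The overlap of Top2b peaks with H3K27ac at these genes rests on small counts. Whether it differs from the share over all Top2b peaks was not tested. In WT, 3 of 37 overlapped an H3K27ac peak, at the *Cadps2* start and at 3.71 and 132 kb into *Ntrk2*, beside 17.4% of all WT Top2b peaks. In deficient CGNs, 4 of 31 did, beside 26.6% of all. These lay 1.64 kb into *Cadps*, 2.95 kb into *Bdnf*, at the *Ntrk2* start and 132 kb into *Ntrk2*, where the peaks of both genotypes overlapped. The H3K27ac library came from fresh GNPs and not from the cultured CGNs, so cell stage and protein differ together in this comparison.

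Of the 32 H3K27ac peaks, 3 overlapped a WT Chd7 peak, beside 4.98% of all H3K27ac peaks. Of the 3 WT Chd7 peaks, 0 overlapped a WT Top2b peak and 1 overlapped a Top2b peak of deficient CGNs, beside 16.6% and 34.2% of all WT Chd7 peaks. Counted over Top2b peaks this was 0 of 37 in WT and 1 of 31 in deficient CGNs, where 1.9% and 3.09% of all Top2b peaks overlapped a WT Chd7 peak. The exception was the unacetylated *Ntrk3* site, which overlapped chr7:78518596-78518995. The nearest WT Top2b peak there (chr7:78519848-78520243) was 701 bp away and was itself shared with deficient CGNs. At *Cadps2* the nearest Top2b peaks to the Chd7 site were 34618 bp (WT) and 12239 bp (deficient) away, and at *Ntrk2* 16400 bp and 19999 bp.

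In a wider list of 52 genes of the same pathways, WT Chd7 peaks stood within 50 kb of 11 (21.2%, Wilson 95% interval 12.2 to 34.0), beside 14.3% of all protein-coding genes. Among neurotrophin ligands, receptors and adaptors these were 7 of 20 (35%, 18.1 to 56.7), and among dense-core vesicle cargo, processing and release genes 4 of 32 (4.97 to 28.1%). The median gene length was 62.7 kb in the neurotrophin list and 39.7 kb in the release list. The share over all protein-coding genes was not matched for gene length, and enrichment was not tested. No Chd7 peak of *Chd7*-deficient GNPs lay at any of the 52 (up to 6.88%), beside 0.205% of all protein-coding genes. An H3K27ac peak within 500 bp of a start site was present at 35 of the 52 (67.3%), beside 46% of all protein-coding genes. WT Top2b peaks lay at 45 (86.5%) and deficient ones at 47 (90.4%), beside 62.2% and 71% of all.

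On the release side, the highest −log10 q-value was 8.37 at *Unc13c*, which encodes a vesicle priming protein of cerebellar granule cells, with a fold enrichment of 5.62 inside the gene. *Stx1a*, a plasma membrane SNARE, had a peak of 7.47, *Chga*, a core protein of dense-core vesicles, one of 6.77, and *Rab3a*, a small GTPase of secretory vesicles, one of 3.50. Those of *Stx1a* and *Chga* lay 14.4 and 43.4 kb outside the gene, where other genes may be nearer.

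On the receptor side, *Gab1*, a docking protein of receptor tyrosine kinases, had 3 Chd7 peaks with a highest −log10 q-value of 5.79. *Ngfr*, which encodes the p75 neurotrophin receptor, had 1 peak (3.64). The adaptors *Shc2* (3.71, 2 peaks), *Sh2b1* (3.12) and *Grb2* (2.15), the phospholipase *Plcg1* (3.38) and the sortilin-related receptor *Sorcs2* (2.12) had the others. The strongest peaks of *Gab1*, *Shc2*, *Sh2b1*, *Grb2* and *Sorcs2* lay 24.8, 4.15, 27.4, 35.5 and 9.24 kb outside the gene, and those of *Ngfr* and *Plcg1* inside it. The strongest peaks of *Shc2* and *Sorcs2* overlapped no H3K27ac peak. When the window reached 5 kb before and 1 kb past the gene, 5 of the 52 genes had a Chd7 peak (9.62%, 4.18 to 20.6), beside 6.04% of all protein-coding genes. These were 3 of the 20 neurotrophin genes (15%, 5.24 to 36.0) and 2 of the 32 release genes (6.25%, 1.73 to 20.1). When peaks under a −log10 q-value of 5 were left out of the wider window, 4 of the 52 had one (7.69%, 3.03 to 18.2), beside 5.41% of all. Of these 4, 1 was among the 20 neurotrophin genes (*Gab1*) and 3 among the 32 release genes.

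By peak density over the 5 libraries (log2 of peaks per 100 kb of window plus 1), *Cadps2* was set beside 2491 protein-coding genes longer than 100 kb. The nearest by Euclidean distance were *Tmem117* (0.169), *Slc24a3* (0.180), *Ext1* (0.226), *Kctd16* (0.233) and *Syt16* (0.246). *Tmem117* had 9 H3K27ac, 1 WT Chd7 and 6 WT and 4 deficient Top2b peaks, and *Slc24a3* 11, 1, 8 and 4, where *Cadps2* had 12, 1, 8 and 4. The other 3 genes had no Chd7 peak. *Cadps*, *Ntrk2* and *Ntrk3* were not among these 5.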

How the data were processed

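Peak files of 5 ChIP-seq libraries were used, with 1 sample per condition, and the input libraries were not analysed here. The authors trimmed reads, mapped them to mm10 with bowtie 1.0.0 keeping unique alignments, and called GNP peaks with macs2 and CGN Top2b peaks with homer. The pileup signal in the deposited tables is the fragment coverage at the summit. The authors deposited fold enrichment, a ratio to the local background, and −log10 of p and q-values without decimal points. These were divided by 100000 and checked by recomputing −log10 p-values, which differed by at most 0.00261. Which control macs2 used is not stated. BED starts were taken as 0-based, and the Top2b lists hold no used score.

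Overlap meant at least 1 bp. Start sites of a gene within 500 bp formed 1 cluster. Neighbouring H3K27ac peaks were stitched as homer does by default, ranked by width times pileup and cut where the scaled curve reached slope 1. Promoters were RefSeq windows (250 bases before to 50 after the start), found for 5 of 6 genes. No tests were run. The overlap and window counts and the restored decimals were tested on simulated data. Genes named were the 6 members, each gene with a Chd7 peak on the pathway list, and the 5 nearest to *Cadps2*. Members and lists were chosen with earlier results of these data known. Scripts ran in Python 3.11.15 with pandas 2.3.3, numpy 2.4.6, pysam 0.24.0, scipy 1.17.1 and, for plots, matplotlib 3.10.9.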

Additional observations from a re-analysis of the deposited data

How the results depend on the processing

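Of 45 alternative values for 17 results, 37 stayed within 1.5 times the value reported. Some of these could not have moved. A stricter threshold or a smaller window leaves a count of 0 at 0, as for H3K27ac at *Ntf3* and Chd7 in *Chd7*-deficient GNPs. H3K27ac counts moved with the peak threshold and the window. Without peaks under a −log10 q-value of 5, *Cadps2* kept 6 of 12 peaks, *Ntrk2* 8 of 14 and *Cadps* 1 of 4, since the others were weaker than that. Counting peaks inside the gene alone left 5 for *Cadps2* and 0 for *Ntrk3*. With width times fold enrichment, 0 of the 6 genes were overlapped by a super-enhancer-like region instead of 1. The pathway genes with a WT Chd7 peak fell from 11 to 5 in the narrower window and to 4 at the same stricter q-value. There 2 of the 3 WT Chd7 peaks remained, those of *Cadps2* and *Ntrk3*, and counting inside the gene alone also left 2, those of *Ntrk2* and *Ntrk3*. Counting Top2b peaks within 1 kb of one another as shared, an alternative chosen after seeing the data, gave 9 of 37 WT peaks instead of 7. No replicate could be left out, and no paired analysis was possible because each condition had 1 sample.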
